A study of Mus musculus with 6 samples.

Results

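The IFIT family, the interferon-induced proteins with tetratricopeptide repeats, was followed through 5 mouse genes, Ifit1, Ifit1bl1, Ifit2, Ifit3 and Ifit3b, in macrophages lacking the mitochondrial fission GTPase DRP1. They were taken by name from the 36137 genes of the GRCm39 annotation that had a quantified transcript, and all 5 were among the 18506 genes with enough counts to be tested. RNA came from bone marrow-derived macrophages (BMDMs), which are macrophages grown from bone marrow in L929-conditioned medium, here at day 7. Both groups, WT and Drp1 KO, were given serum-free medium under 2.1% oxygen for 8 hours (hypoxia serum starvation, HSS), a culture model of ischemia, with 3 libraries in each group. The study describes the KO cells as LysM-Cre+/- Drp1 fl/fl and the WT cells used for sequencing as LysM-Cre+/- Drp1+/+, so both genotypes carried the Cre transgene, which the lysozyme M promoter switches on in myeloid cells. The mice were on a C57BL/6J background as far as the LysM-Cre line is described, and the study's methods describe young adult animals of both sexes. The labels call the libraries of a group biological replicates. Marrow from 2 mice of a genotype was combined to grow these cells, and whether each library had its own pool is not given in the sources used here, so the p-values measure the spread between these libraries. Every library was exposed to HSS, so no value here measures the response to HSS itself.

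IFIT proteins are made in large amounts after type I interferon or viral RNA is sensed, and are at low levels in resting cells. IFIT1 grips the end of messenger RNAs whose cap lacks ribose methylation, a mark of some foreign RNA, and blocks their translation, and members of the family also bind the translation initiation factor eIF3. Their genes respond to interferon through transcription factors that recognise an interferon-stimulated response element (ISRE), among them STAT2 and IRF9, and can also respond directly to IRF3, which is switched on by nucleic acid sensors. In macrophages they are used widely as a readout of interferon signalling.

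The DNA just before the start sites is shown because ISRE cores are what most of the members have in common there. The ISRE core searched was GAAA, any 2 bases and GAAA again, on both strands and with overlaps allowed, in RefSeq promoter sequences of 300 bases, 250 before and 50 after each start. RefSeq holds these for GRCm38.p6, and each was found exactly once on chromosome 19 of GRCm39, whose coordinates are given. Only the stretch outside annotated exons is printed, 5′ to 3′ on the strand of the gene, and capitals mark an ISRE core, read here from the opposite strand.
Ifit1 (chr19:34618144-34618270, plus strand): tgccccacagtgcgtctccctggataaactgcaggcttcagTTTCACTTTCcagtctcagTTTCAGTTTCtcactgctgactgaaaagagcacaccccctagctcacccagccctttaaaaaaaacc
Ifit3 (chr19:34560679-34560898, plus strand): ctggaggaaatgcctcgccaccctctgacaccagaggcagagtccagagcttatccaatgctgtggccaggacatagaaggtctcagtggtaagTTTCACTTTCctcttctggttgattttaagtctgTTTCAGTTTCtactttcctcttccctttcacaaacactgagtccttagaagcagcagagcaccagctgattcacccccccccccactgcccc
Ifit3b (chr19:34585107-34585327, plus strand): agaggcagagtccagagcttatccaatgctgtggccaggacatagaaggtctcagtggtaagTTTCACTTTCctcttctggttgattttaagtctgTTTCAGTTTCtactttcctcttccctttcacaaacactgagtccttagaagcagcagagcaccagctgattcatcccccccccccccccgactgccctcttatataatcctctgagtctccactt
Ifit1bl1 (chr19:34579369-34579618, minus strand): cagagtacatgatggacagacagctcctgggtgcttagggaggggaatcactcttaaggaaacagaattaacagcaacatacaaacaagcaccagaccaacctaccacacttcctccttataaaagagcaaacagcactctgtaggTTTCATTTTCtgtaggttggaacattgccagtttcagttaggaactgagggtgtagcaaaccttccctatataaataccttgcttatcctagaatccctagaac
Ifit1, Ifit3 and Ifit3b each had 2 cores with the same letters, TTTCACTTTC followed by TTTCAGTTTC. Counted from the start site, they began at positions -104 and -85 in Ifit1, -156 and -122 in Ifit3, and -188 and -154 in Ifit3b. Ifit1bl1 has 2 RefSeq starts with a core of the same letters before each, TTTCATTTTC, at -104 in the promoter printed and at -23 from the other start at 34576827, which are separate sites. Neither RefSeq promoter of Ifit2 held these letters, and the one starting at 34528094 held 1 core of the gamma-activated site, TTCCTGGAA, at -241. Of 32851 mouse promoters of this length, 3.44% held at least 1 ISRE core and 0.225% held 2 or more. The gamma-activated site core, TTCNNNGAA, was in 8.30% of them. The core of the hypoxia response element, ACGTG, was in 19.6% of all promoters and in none of those of the 5 members. Such matches are descriptions of sequence, and binding was not measured.

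The deposited counts summed to 24269850 to 28650715 per WT library and to 23389488 to 32231206 per Drp1 KO library, so 3 counts, taken as the limit that a count of 0 allows, correspond to 0.0931 to 0.128 CPM (counts scaled to library size). Intervals and limits of this kind cover counting error only. Levels below are CPM on TMM-normalized library sizes. A positive log2 fold change means higher in Drp1 KO, and adjusted p-values come from edgeR's quasi-likelihood test with Benjamini-Hochberg adjustment over all 18506 genes. The median log2 fold change of all genes was 0.0046. Dnm1l, which encodes DRP1, had 72.6 ± 2.61 CPM in WT against 61.9 ± 3.91 CPM in KO libraries (SD over 3 libraries each), with every KO library below every WT library and an adjusted p of 0.248 (edgeR). Counts summed over a gene do not show whether the floxed exons were missing. The study reports loss of DRP1 protein by immunoblot in BMDMs of this KO genotype, though not for these libraries in particular. The 9 macrophage markers had a summed level between 12095 and 14926 CPM in the 6 libraries. Most of it was Lyz2, at 8173 to 9961 CPM, and the lowest marker in WT, Fcgr1, averaged 65.8 CPM there. Libraries 1 of both groups stood apart from the others, since WT library 1 and KO library 1 deviated from their group means together (correlation 0.547 across 12248 genes, which are not independent replicates), so values without each of them are given with the results.

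All 5 IFIT genes rose in Drp1 KO BMDMs, 4 of them by more than 4-fold. Among all genes tested, 2.29% were called higher and 1.06% lower at an adjusted p under 0.05. At a looser cut, a rise of more than 25% with an unadjusted p under 0.05, 7.19% of genes were higher, and all 5 IFIT genes passed it. In each of the 5 genes every KO library lay above every WT library, a pattern that 11.7% of all genes showed.

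**Figure D1:**
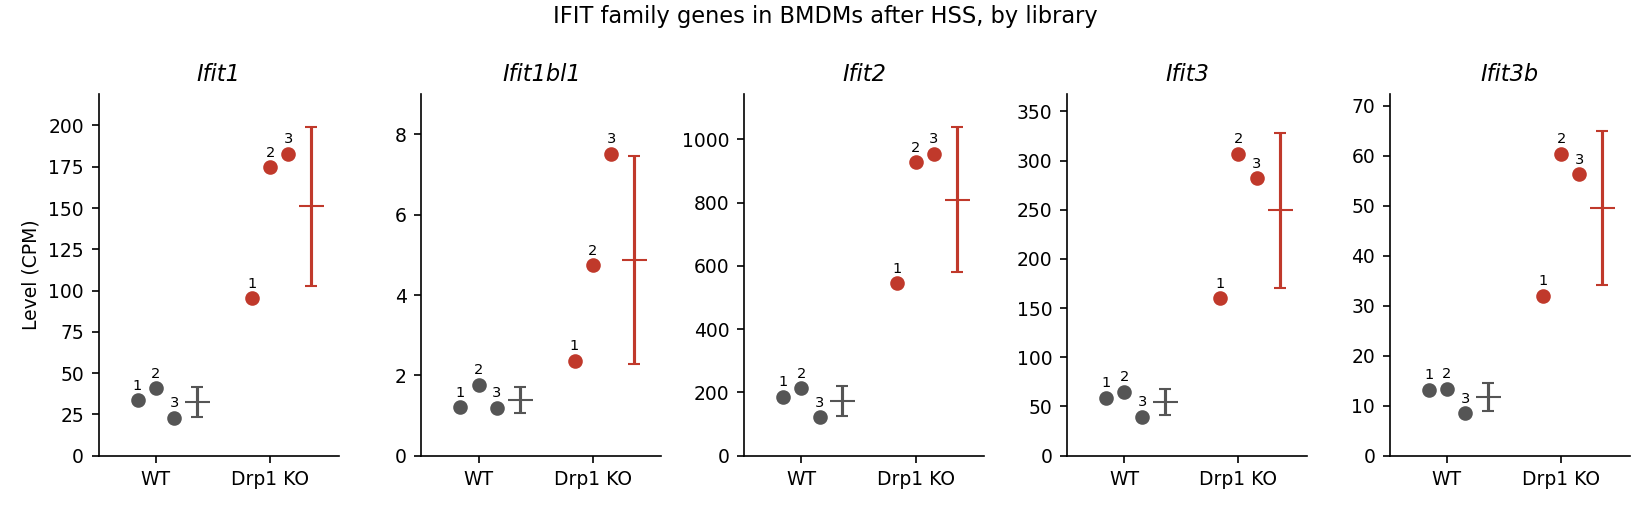
Level of each IFIT gene (CPM, y axis, a separate scale for each gene) in the 3 WT and 3 Drp1 KO libraries, with points numbered by library and horizontal and vertical bars for the mean and SD. The KO points lie above the WT points in each panel, and KO library 1 is the lowest KO point in each.

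Ifit2 (ENSMUSG00000045932), whose protein binds RNA and has been linked to cell death, lies on the plus strand of chromosome 19 from 34527932 to 34554524. Its level was 186, 213 and 121 CPM in WT libraries 1 to 3 and 545, 927 and 954 CPM in KO libraries 1 to 3. The lowest KO library was 2.56 times the highest WT library. The group means were 173 ± 47.2 and 809 ± 229 CPM (SD over 3 libraries each), and the fitted change of 2.22 on the log2 scale had a standard error of 0.25 and an adjusted p of 0.00100 (edgeR). Ranked by length-corrected level (TPM), Ifit2 moved from position 1819 of all genes in WT to position 364 in KO cells.

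Ifit1 (ENSMUSG00000034459), the cap-binding member, lies on the plus strand from 34618271 to 34632174. WT libraries 1 to 3 had 33.4, 40.8 and 23.1 CPM and KO libraries 1 to 3 had 95.4, 175 and 183 CPM. The groups did not overlap, and the lowest KO library was 2.34 times the highest WT library. Means were 32.4 ± 8.90 and 151 ± 48.3 CPM (SD, n = 3 each), and the log2 fold change, 2.22 with a standard error of 0.26 and an adjusted p of 0.00149 (edgeR), equalled that of Ifit2 to 2 decimals.

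Ifit3 (ENSMUSG00000074896), whose human counterpart stabilises IFIT1, lies on the plus strand from 34560899 to 34566443. Its level was 59.1, 65.1 and 39.5 CPM in WT libraries and 160, 307 and 282 CPM in KO libraries. KO library 1 was again well below KO libraries 2 and 3, yet 2.46 times the highest WT library. From 54.6 ± 13.4 to 250 ± 78.8 CPM (SD over 3 libraries each), Ifit3 changed by 2.20 on the log2 scale (standard error 0.25, adjusted p = 0.00123, edgeR).

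Ifit3b (ENSMUSG00000062488), a close copy of Ifit3, lies on the plus strand from 34585328 to 34590801. It was lower than Ifit3 in each library, at 13.2, 13.4 and 8.48 CPM in WT and 32.0, 60.4 and 56.3 CPM in KO libraries. The lowest KO library exceeded the highest WT library 2.39 times. Group means were 11.7 ± 2.79 and 49.6 ± 15.4 CPM (SD over 3 libraries each), a change of 2.09 on the log2 scale (standard error 0.25, adjusted p = 0.00159, edgeR).

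Ifit1bl1 (ENSMUSG00000079339), named for its likeness to an Ifit1-type gene, lies on the minus strand from 34570291 to 34579356 and was the scarcest member. Its counts were 28, 47 and 35 in WT libraries and 52, 155 and 245 in KO libraries. In CPM these were 1.21, 1.76 and 1.19 against 2.36, 4.74 and 7.51, so KO library 1 was only 1.34 times the highest WT library. Means were 1.39 ± 0.324 and 4.87 ± 2.58 CPM (SD, n = 3 each), and the log2 fold change was 1.82 (standard error 0.38, adjusted p = 0.0317, edgeR). This call was not robust: by limma-voom the adjusted p was 0.0654, and it was lost when WT library 1, 2 or 3 or KO library 2 or 3 was left out (adjusted p 0.0647 to 0.139, edgeR), though not when KO library 1 was (0.00295).

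The other 4 genes passed in every alternative tried, with adjusted p-values of at most 0.0129 with each library left out. Without KO library 1 their log2 fold changes were 2.31 (Ifit3b) to 2.46 (Ifit1), and without WT library 1 they were 2.19 (Ifit3b) to 2.27 (Ifit2). Taken one gene at a time, an exact two-sided permutation test over 6 libraries has 0.1 as its smallest p, and each of the 5 genes had that p of 0.1. Summed, the 5 genes took 293, 334 and 194 CPM in WT libraries and 834, 1474 and 1483 CPM in KO libraries, a ratio of means of 4.62. The SD of a gene's CPM was 23.4% to 27.4% of its mean in WT and 28.3% (Ifit2) to 53.0% (Ifit1bl1) in KO libraries, where the sums of KO libraries 2 and 3 were close and that of KO library 1 was lower.

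While the total rose, the order of the genes was the same in each library. On the deposited TPM scale, which corrects for transcript length, this order in the 6 libraries was Ifit2, Ifit3, Ifit1, Ifit3b and Ifit1bl1. Ifit2 took 48.4% ± 0.502 of the summed TPM in WT and 49.1% ± 1.44 in KO BMDMs (SD, n = 3 each). Ifit3 took 31.8% ± 0.581 and 31.5% ± 1.39, Ifit1 13.1% ± 0.488 and 13.3% ± 0.546, Ifit3b 6.08% ± 0.350 and 5.58% ± 0.188, and Ifit1bl1 0.712% ± 0.140 and 0.518% ± 0.171. An exact two-sided permutation test, for which 0.1 is again the smallest p possible, gave p = 0.2 to 0.8 for the 5 shares (adjusted over the 5 genes 0.5 to 0.8) and so says nothing about their stability. Between libraries of the same number the Ifit1bl1 share was lower in KO in 3 of 3 pairs, and the other 4 shares moved in both directions. With all libraries the differences were at most 0.772 percentage points, for Ifit2, and this one was 0.145 without KO library 1 and 1.56 without KO library 2. That of Ifit3 reached -1.13 without KO library 2, and those of Ifit1 and Ifit3 changed sign when KO library 3 was left out. Neighbours in this order were also compared across the libraries of a group. The lowest Ifit2 library lay below the highest Ifit3 library, at 58.5 against 60.4 TPM in WT and 221 against 272 TPM in KO, so these ranges overlapped, and the other neighbours did not overlap in either group.

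**Figure D2:**
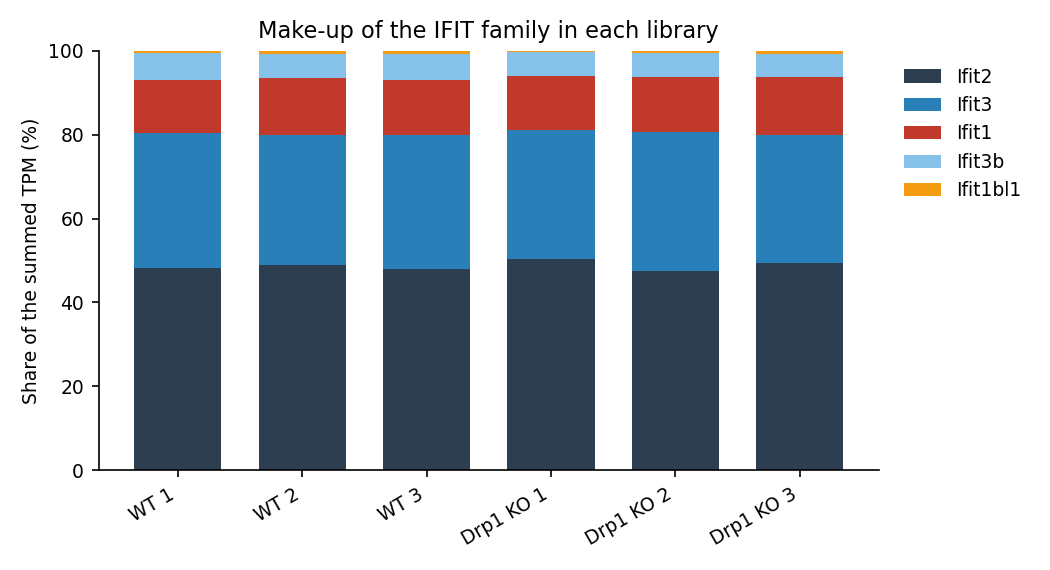
Share of the summed TPM of the 5 IFIT genes (y axis, percent) taken by each gene in the 6 libraries (bars, x axis). Ifit2 holds the lowest block of each bar, at 47.6% to 50.4%, and the blocks differ little between WT and Drp1 KO libraries.

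Sequence shared between members limits how well some can be told apart. The coding sequences of Ifit3 and Ifit3b were 99.1% identical, with 11 of 1209 bases differing, and 78.3% of the 31-base words of Ifit3's coding sequence were also in Ifit3b. Their split is therefore an estimate by kallisto rather than a direct count. The ratio of Ifit3b to Ifit3 counts was 0.224, 0.206 and 0.215 in WT libraries and 0.200, 0.197 and 0.200 in KO libraries. Every KO library was thus below every WT library, with means of 0.215 and 0.199 (exact two-sided permutation p = 0.1, the smallest possible). That the ratio was lower in KO in 3 of 3 pairs of the same number follows from this and adds nothing. Added together as a single feature, Ifit3 and Ifit3b gave a log2 fold change of 2.18 (adjusted p = 0.00124, edgeR), which does not depend on the split. Ifit2 shared no coding 31-base word with another gene, and its coding identity with the others was 56.3% to 62.2%. Ifit1 had 81.5% of its coding words to itself and was 75.9% identical to Ifit1bl1. Ifit1bl1 in turn was 88.2% identical to Ifit1bl2, a gene of the same cluster that is not among the 5.

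At transcript level, Ifit1, Ifit3 and Ifit3b each had a single quantified transcript. Ifit2-201 carried at least 99.7% of the Ifit2 counts in each library, and the truncated model Ifit2-202 had 2.54 to 9.37 counts. Ifit1bl1 had 2 transcripts, each with 1410 coding bases, whose estimates moved from one to the other between libraries. Ifit1bl1-202 had 28.0, 0.118 and 0.0426 counts in WT libraries and 52.1, 155 and 187 in KO libraries. Ifit1bl1-201 had 0, 46.9 and 34.6 counts in WT libraries and 58.3 in KO library 3, with 0.101 or fewer in KO libraries 1 and 2. Only the sum over both is used here.

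The 5 genes lie within 104243 bases of chromosome 19, and 1 of the tested genes around them rose. Of 50 annotated genes within 500 kb on either side, 45 were not members, and 10 of these had enough counts to be tested. Their median log2 fold change was -0.10, with a range of -0.86 to 1.12. Lipa, the lysosomal acid lipase gene and the nearest tested gene on the Ifit2 side with a gap of 5768 bases, had 1592 ± 46.3 CPM in WT against 1523 ± 82.3 CPM in KO libraries (SD over 3 libraries each), a log2 fold change of -0.06 with an adjusted p of 0.831 (edgeR). On the other side, Slc16a12, a transporter gene, was at 0.275 and 0.152 CPM (-0.86, adjusted p = 0.532). Stambpl1, a deubiquitinase gene farther off, was the only one of the 10 to pass, from 17.1 ± 1.12 to 25.5 ± 3.06 CPM (0.57, adjusted p = 0.0334). The death receptor gene Fas (-0.13), the smooth muscle actin gene Acta2 (-0.33), the kinase gene Pank1 (-0.31), the kinesin gene Kif20b (0.10) and the lipase gene Lipn (0.86, adjusted p = 0.192) did not pass. Ch25h, itself a known interferon target, was near the limit of detection, at 0.0886 and 0.0612 CPM (-0.39).

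**Figure D3:**
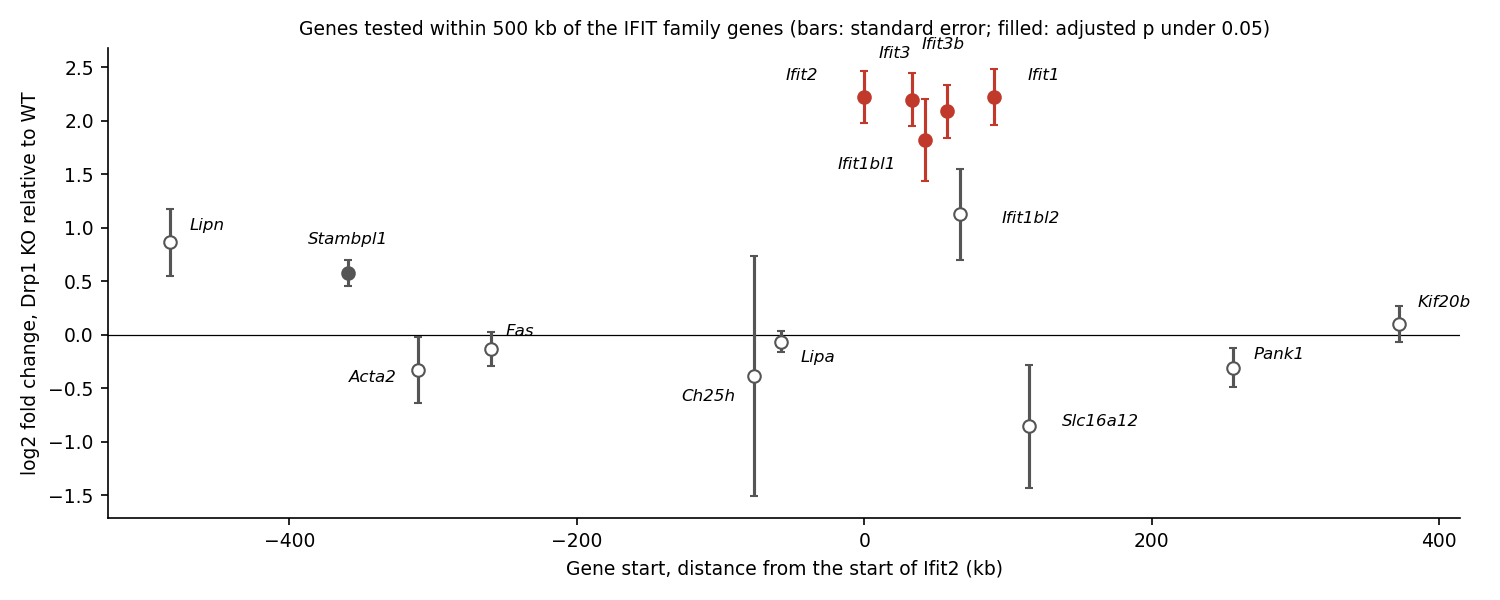
Log2 fold change of Drp1 KO relative to WT (y axis, with standard error bars) for the genes tested around the IFIT cluster, by distance of the gene start from that of Ifit2 (x axis, kb). Red marks the 5 IFIT genes, grey their neighbours, and filled points passed an adjusted p under 0.05. The 5 IFIT genes lie between 1.82 and 2.22 and the neighbours between -0.86 and 1.12.

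Ifit1bl2 (ENSMUSG00000067297) sits inside the cluster on the minus strand and faces Ifit1 head to head, with RefSeq start sites at 34618143 and 34618289. The stretch printed for Ifit1 is therefore also a promoter of Ifit1bl2, with the same 2 ISRE cores read from the other strand. The promoter at a further RefSeq start site of Ifit1bl2, at 34607211, held 0 ISRE cores. Ifit1bl2 had 0.604, 0.712 and 0.852 CPM in WT libraries and 0.681, 1.77 and 2.24 CPM in KO libraries, so the groups overlapped. Its change of 1.12 on the log2 scale did not pass (standard error 0.43, adjusted p = 0.216, edgeR). It passed when libraries were paired by replicate number (adjusted p = 0.0498, edgeR) or when KO library 1 was left out (0.0350). The pairing by number, wherever it is used here, was taken from these data and is not in the labels. Whether Ifit1bl2 differs in response from Ifit1 was not tested. The annotated span of Ifit1bl2 runs over Ifit1 on the opposite strand. The quantified transcript of Ifit1bl2, from its start at 34618143 down to 34594449, does not overlap Ifit1, whose first base is 34618271.

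Of 79 other genes listed for the interferon pathway, 61 had enough counts to be tested, and 32 rose while none fell at an adjusted p under 0.05 (edgeR). These 32 are 52.5% of those tested, set beside the 2.29% of all genes called higher. No listed gene was lower at an unadjusted p under 0.05, or by DESeq2 or limma-voom. With a library left out, 24 (without WT library 2) to 36 (without WT library 1) rose, with 26 without WT library 3, 28 without KO library 2, 29 without KO library 3 and 33 without KO library 1. With length-scaled counts 28 rose. With libraries paired by replicate number, 40 rose, the 8 added being Jak2, Cgas, Tlr7, Eif2ak2, Socs3, Bst2, Ifi35 and Cxcl10. Of 21 interferon genes, 13 had no count in any library, 3 could be tested and none passed (median log2 fold change -0.13). Ifnb1, interferon beta, had 0 counts in the first 5 libraries and 5 in KO library 3. Ifna1 had none, and Ifna2 had 2 and 1 in KO libraries 2 and 3. All 21 together had 24, 20 and 18 counts in WT libraries and 8, 35 and 23 in KO libraries, at most 35 counts in a library. None of the 3 tested had an unadjusted p under 0.05, and DESeq2 and limma-voom called 0.

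**Figure D4:**
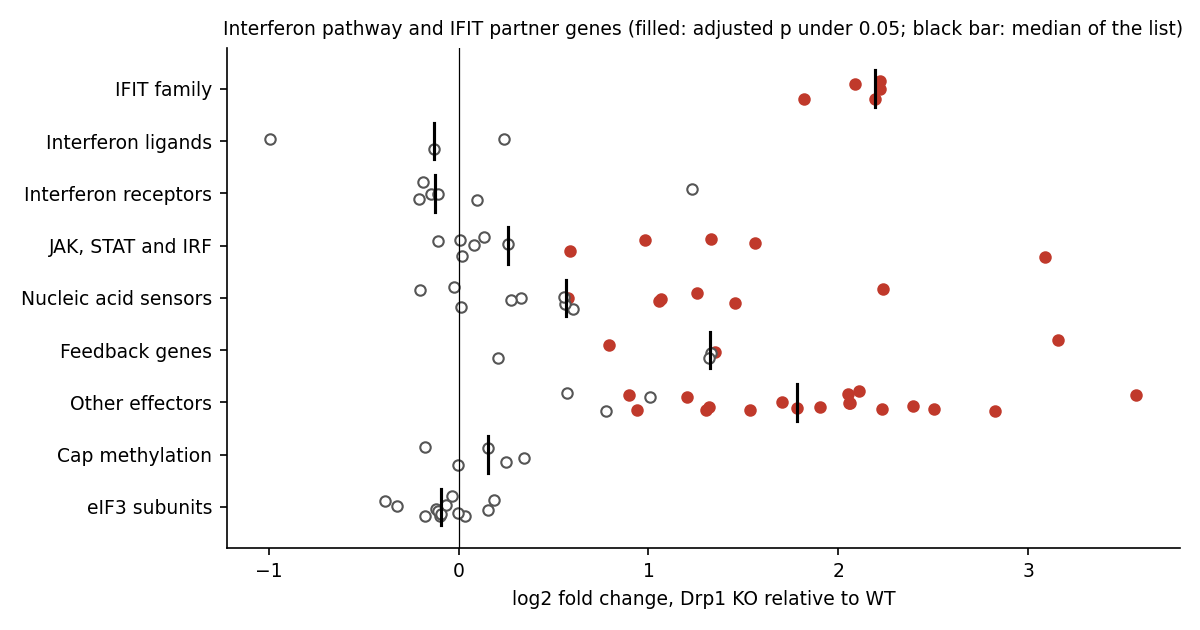
Log2 fold change of Drp1 KO relative to WT (x axis) for the tested genes of each list (rows). Filled red points passed an adjusted p under 0.05, open points did not, and black bars are list medians. The IFIT genes sit at 1.82 to 2.22, the interferon ligands, receptors, cap methylation enzymes and eIF3 subunits have no filled point, and other effectors reach 3.57.

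None of the 6 receptor genes passed, also without adjustment or by DESeq2 or limma-voom (median -0.13). Ifnar1 and Ifnar2, the chains of the type I interferon receptor, had 172 ± 11.4 and 367 ± 11.9 CPM in WT against 156 ± 8.47 and 322 ± 58.9 CPM in KO libraries (SD over 3 libraries each). The interferon gamma receptor gene Ifngr1 had a log2 fold change of -0.21 (adjusted p = 0.311). Of 11 kinase, STAT and IRF genes, 5 rose and the median was 0.26. Stat2 rose from 45.4 ± 2.75 to 114 ± 24.8 CPM (1.33, adjusted p = 0.00124) and Irf9 from 43.6 ± 4.78 to 85.9 ± 8.45 CPM (0.98, 0.00149). Irf1 rose by less (0.59, adjusted p = 0.0214, edgeR), and this call was lost without WT library 2 or 3 or KO library 2 or 3. With length-scaled counts 4 of the 11 genes were called higher rather than 5. Irf7, the amplifier of interferon gene transcription, had 74.6, 21.2 and 19.3 CPM in WT libraries and 349, 355 and 271 CPM in KO libraries (3.09, standard error 0.45, adjusted p = 0.00554). Its WT library 1 stood above the other two, and without it the log2 fold change was 4.003. The kinase genes Jak1 (-0.11), Jak2 (0.26) and Tyk2 (0.14), and Irf3 (0.01), did not pass, though Jak2 did with libraries paired (adjusted p = 0.0460).

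Among 14 sensor genes 6 rose, with a median of 0.57. The cytosolic RNA sensor genes Rigi (1.46), Ifih1 (1.06) and Dhx58 (1.255), the Z-nucleic acid sensor gene Zbp1 (2.24), the endosomal RNA receptor gene Tlr3 (1.05) and the ubiquitin ligase gene Trim25 (0.57) passed. The adaptor gene Mavs (-0.20) and the DNA sensing genes Cgas (0.60) and Sting1 (0.33) did not. With libraries paired, Cgas, Tlr7 and Eif2ak2 were also called, making 9 sensor genes, while 4 were called with length-scaled counts or without WT library 2, where Tlr3 and Trim25 were lost. Of 6 feedback genes 3 rose, namely Usp18, which encodes a brake on the type I receptor (3.16), the exonuclease gene Trex1 (1.35) and the editing enzyme gene Adar (0.79, lost without WT library 2). Socs1 (1.33, adjusted p = 0.225) was below 1 CPM in both groups and did not pass, and Socs3 (1.32, adjusted p = 0.0863) passed with libraries paired (0.0162).

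The 21 other interferon-stimulated effectors, the genes nearest to the IFIT family in role, had 18 called higher and a median log2 fold change of 1.78, against 2.20 for the 5 IFIT genes. Among the 18 called, the values ran from 0.90 for the exonuclease gene Isg20 to 3.57 for Oasl1. The ubiquitin-like modifier gene Isg15 (2.06), the viperin gene Rsad2 (2.06), the dynamin-like GTPase genes Mx1 (1.78) and Mx2 (2.05), Oas1a (1.30), Oas2 (1.91), Oas3 (2.502) and Oasl2 (2.23) of the oligoadenylate synthetase family, Ifi44 (2.82), Rtp4 (2.39) and Xaf1 (2.11) were among them. Ifitm3 (1.53), Cmpk2 (1.71), Herc6 (1.203), Ddx60 (1.32) and Parp14 (0.94) completed the set of those called. Bst2, Ifi35 and Cxcl10, at 0.57 to 1.008, did not pass, but each had an unadjusted p under 0.05, Ifi35 was called by DESeq2, and all 3 passed with libraries paired (adjusted p 0.00417, 0.0123 and 0.0318), so that 21 of 21 effectors did. The count was 14 without WT library 2, where Oas1a, Isg20, Ifitm3 and Parp14 were lost, and 14 without WT library 3, where Isg20, Ifitm3, Herc6 and Parp14 were.

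The partners of IFIT action were measured too. Ribose methylation is the cap mark whose lack IFIT1 recognises, and the list of cap methylation genes was not limited to it. None of the 5 genes for cap methylation passed (median 0.15). Rnmt was at 0.15, Ramac at 0.35 and Cmtr1, a ribose methyltransferase gene, at 0.25 (adjusted p 0.512, 0.136 and 0.254, edgeR). None of the 13 eIF3 subunit genes passed either (median -0.09). At an unadjusted p under 0.05 there were 2 cap methylation genes, Ramac and Cmtr1, and 1 eIF3 gene, Eif3k, and DESeq2 and limma-voom called 0 in both lists. Eif3a was at 544 ± 53.1 and 435 ± 91.3 CPM (-0.32, adjusted p = 0.312). When libraries were paired by replicate number, Ramac was called higher (adjusted p = 0.0419), and Eif3a and Eif3k were called lower (0.0201 and 0.0164). Eif3k was also called lower without KO library 1.

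Ifit1, Ifit2, Ifit3 and Ifit3b lay close to one another in their pattern over the 6 libraries, and Ifit1bl1 lay farther off. Likeness was measured as the root mean square difference of log2 CPM, centred on each gene's mean, over the 6 libraries and among the 12248 genes that averaged 1 CPM or more. It was 0.050 between Ifit1 and Ifit2, 0.066 between Ifit2 and Ifit3, 0.068 between Ifit3 and Ifit3b, and at most 0.118 for any pair of these 4. Ifit1 and Ifit3 were closer to each of the other 3 than to any gene outside the family. Rsad2 came between for the rest: it was at 0.109 from Ifit2, just nearer than Ifit3b at 0.110, and at 0.105 from Ifit3b, nearer than Ifit1 and Ifit2. Ifit1bl1 was 0.386 to 0.420 from the others, and its counts were the smallest of the family. All points share the same libraries, and 3 of the 6 are KO, so any gene with a similar fold change scores well.

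Outside the family, Rsad2 was among the 3 nearest genes for Ifit1, Ifit2, Ifit3 and Ifit3b (0.105 to 0.142). Its level was 96.2, 100.6 and 62.4 CPM in WT and 271, 400 and 411 CPM in KO libraries. Iigp1, an immunity-related GTPase gene, was among the 3 nearest for Ifit1, Ifit2 and Ifit3 (0.133 to 0.174), with 7.81, 9.93 and 5.66 CPM in WT and 19.98, 49.6 and 47.6 CPM in KO libraries. The rest were Mx2 for Ifit1 (0.161), Ifi209 for Ifit2 (0.169), Ifi205 for Ifit3 (0.169) and for Ifit3b (0.164), and Iigp1c for Ifit3b (0.150). Ifi205 and Ifi209 belong to a family of interferon-inducible proteins that includes DNA sensors. Iigp1 and Iigp1c are related genes, and how reads were divided between them was not examined. For Ifit1bl1 the nearest were Cmpk2 (0.234), Tcstv4 (0.244) and F830016B08Rik (0.245).

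**Figure D5:**
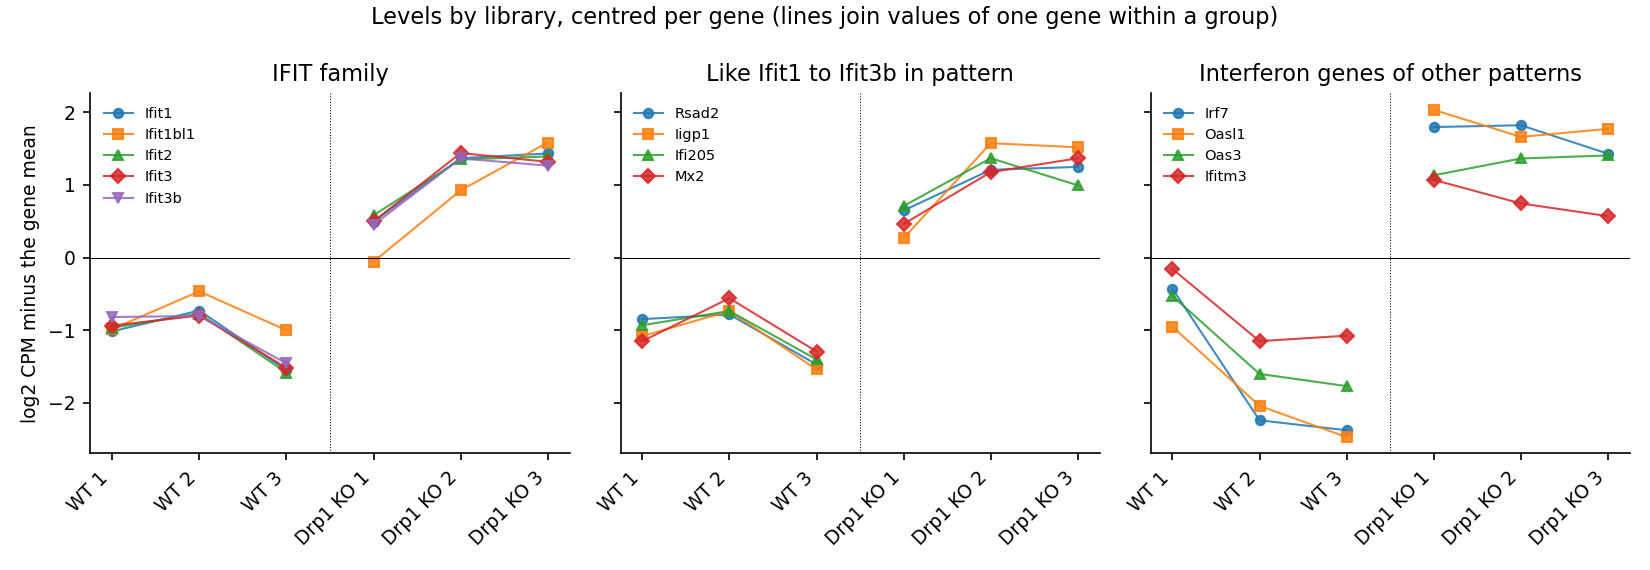
Log2 CPM minus the gene's mean over all 6 libraries (y axis) by library (x axis), for the 5 IFIT genes (left), 4 genes near them in pattern (middle) and 4 other interferon genes picked after their values were seen (right). Lines join the values of a gene within a group and imply no order of libraries. KO library 1 is the lowest KO library for the IFIT genes, whereas Irf7, Oasl1 and Ifitm3 are not lowest there.

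The libraries of a group differed in IFIT level in a way that other pathway genes shared only in part. KO library 1 was the lowest KO library for 5 of 5 IFIT genes and for 26 of the 32 other pathway genes that rose, against 34.6% of the 12248 genes. Relative to the mean of KO libraries 2 and 3, KO library 1 had a median of 0.543 for the IFIT genes, 0.753 for the 32 others and 1.03 for all 12248 genes. Only Cmpk2 (0.564), Mx2 (0.567) and Parp14 (0.575) came as low as Ifit2 (0.579), the least affected IFIT gene. Within WT, library 3 was the lowest for 5 of 5 IFIT genes and for 27 of the 32 others, against 31.03% of all 12248 genes. WT library 2 was the highest WT library for 5 of 5 IFIT genes and for 8 of the 32 others, against 24.1% of all 12248 genes. For Ifit3b this rested on 13.4 against 13.2 CPM in WT library 1. The 8 others included Rsad2, Mx2 and Cmpk2, which were near IFIT genes in pattern. Of the 32, 22 were highest in WT library 1, against 47.2% of all genes. WT library 1 divided by the mean of WT libraries 2 and 3 was 0.817 to 1.21 for the IFIT genes. Of the 32 others, 18 lay within this range, 13 above it and 1 below it (median 1.18), and Irf7 (3.69), Oasl1 (2.51) and Oas3 (2.23), singled out after their values were seen, were highest. These differences between libraries within a group rest on single libraries and were not tested.

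Markers of other cells that bone marrow cultures can hold were read beside these results. Bulk RNA cannot tell fewer cells of a type from less RNA per cell. Of 9 neutrophil markers, 6 were tested, all 6 had a positive log2 fold change (median 1.31) and none passed, although 3 had an unadjusted p under 0.05 and DESeq2 called S100a8 and Ngp higher (limma-voom 0). Their summed level was 6.94, 17.8 and 20.1 CPM in WT libraries and 19.02, 45.2 and 44.3 CPM in KO libraries, so in KO it was lowest in library 1, as for the IFIT genes, and in WT it was lowest in library 1, unlike them. S100a8 had 1.90, 3.22 and 3.85 CPM in WT and 2.91, 9.65 and 10.8 CPM in KO libraries, and with libraries paired by replicate number S100a8, S100a9 and Ngp were called higher (adjusted p 0.00145, 7.85e-05 and 0.00264, edgeR). Ly6g was at 0 in all 6 and Elane had at most 4 counts. The part of these cells in the IFIT result was not tested. Of 9 dendritic cell markers 6 were tested and none passed (1 at an unadjusted p under 0.05, 0 by DESeq2 or limma-voom, summed level 4.45 to 8.79 CPM, Cd209a at 0), and of 8 lymphocyte markers 4 were tested and none passed (0 by each of these, summed level 2.45 to 5.77 CPM, Ncr1 at 0). Of 9 fibroblast and endothelial markers 8 were tested and Kdr alone rose (0.94, adjusted p = 0.0144, summed level 26.9 to 45.1 CPM). Among the macrophage markers, Fcgr1, also a known interferon target, rose (1.34, adjusted p = 0.000322), Csf1r (-0.52, 0.0340) and Mertk (-0.52, 0.0236) fell, and 6 did not pass.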

How the data were processed

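RNA-seq libraries of 3 WT and 3 Drp1 KO BMDM samples were analysed from the quantification tables that the authors deposited. Per the labels, poly(A) libraries were made with a stranded kit and processed with kallisto 0.46.1 against GRCm39. The authors deposited, for each transcript, an estimated count that is not normalized between libraries and a TPM value. The paper gives 20% L929 medium and the labels 10%, and whether kallisto used strand is not given in the sources used here. Identifiers of 99.4% of the 116873 transcripts were found in the GENCODE annotation, and the rest, with 0.542% to 0.575% of a library's counts, were not used.

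Transcript estimates were summed to genes and rounded, and genes with at least 10 counts in total were tested (edgeR 4.0.16, R 4.3.3, TMM, quasi-likelihood, no covariate), after the test had been checked on simulated data. Standard errors were derived from each fold change and its F statistic. Alternatives were DESeq2 1.42.0, limma-voom (limma 3.58.1), other scalings and filters, length-scaled counts, summed Ifit3 and Ifit3b, libraries left out and a replicate block. Deviations from the group mean correlated at 0.547, 0.223 and 0.374 between same-numbered libraries, each above 0.1, so the numbers were taken to pair them, from the data only. Other pairs ran from -0.496 to 0.344. The highest of these, WT library 2 with KO library 3, was above the 0.223 of WT library 2 with KO library 2. No pairing is given in the sources used here. Calls made with libraries paired or with the replicate block therefore rest on a choice made from these same data. No library was a copy of another (chi-square per degree of freedom at least 9.50).

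The IFIT genes and all lists were chosen with earlier results of these data known. Named were the 5 IFIT genes, the tested genes of the locus, the 3 nearest genes by pattern for each IFIT gene and, of each pathway list, those called and the first 2 or 3 as listed, and other names were added after their values were seen. Values of single genes that are withheld are not reported here.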

Additional observations from a re-analysis of the deposited data

How the results depend on the processing

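The log2 fold changes of Ifit1, Ifit2, Ifit3 and Ifit3b kept their direction and passed the threshold in all 15 alternatives (14 for Ifit3b), at 1.89 to 2.46. With the replicate block they were 2.20, 2.21, 2.17 and 2.07 (adjusted p at most 0.000142, edgeR). Ifit1bl1 kept its direction in all 15 but not its call, with 1.75 by limma-voom (adjusted p = 0.0654) and 1.37 to 2.13 with a library left out, and 1.75 with the block (adjusted p = 0.00284, edgeR). The count of IFIT genes called was therefore 4 or 5. Of the 79 tested genes of all 8 lists, cap methylation and eIF3 included, 32 were called higher in the main test and 24 to 41 in the alternatives. The count called lower was 0 in the main test, 2 with the replicate block (Eif3a and Eif3k) and 0 to 1 with a library left out (Eif3k without KO library 1), and the block also called Ifit1bl2 and, of the lists, Jak2, Cgas, Tlr7, Eif2ak2, Socs3, Bst2, Ifi35, Cxcl10 and Ramac higher. It changed no call of the 5 IFIT genes. The difference in TPM share changed sign without KO library 3 for Ifit1, to -0.042 percentage points (-0.042 to 0.505 with a library left out), and for Ifit3, to 0.155 (-1.13 to 0.155). The cause was not tested. The number of all genes called, 621 in the main test, was 1155 by DESeq2, 1065 with a minimum of 1 count, 2212 with the block, 181 without WT library 2, 217 without WT library 3, 268 without KO library 2 and 348 without KO library 3. Depth limits the interferon genes, with at most 35 counts in a library. Ifit1bl1 had 28 to 245 counts per library.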
